A study of Mus musculus with 15 samples.

Results

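The transcript levels of 185 genes on mouse chromosome 19, all with an annotated start beyond 20 Mb, were followed through 2 RNA-Seq datasets of NMuMG cells, a mouse mammary epithelial line. The region was chosen by the measured CPM of its genes, which were higher in LIFR KO clones 1 and 2, so its values in those clones are given as a description without a test. The members are the genes of the first dataset that lie in the region and reach a mean of 5 CPM (reads of a gene relative to all reads of its library, the deposited unit) over its 11 libraries. Of 13893 genes listed there, 505 lay on chromosome 19 and 245 of those beyond 20 Mb at any level. 189 of these reached 5 CPM, and Aldh1a1, Abcc2, Loxl4 and Slc25a28 were then left out because the rule excludes their gene families. All 185 members are protein coding, and 180 of them were also listed in the second dataset (Atp5md, Hhex, Ide, Itprip and Marchf5 were not analysed here).

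Every line of the first dataset carried an shRNA against PCBP1, an RNA-binding protein that holds back the translation of selected mRNAs. The shPCBP1 group held 4 lines, which were the unaltered line and CT clones 1 to 3 that had received Cas9 without a gene-specific guide RNA. Into the same shPCBP1 background, paired guides had been used to cut out a short piece of coding sequence of Fam3c (FAM3C KO clones 1 to 3), of Lifr (LIFR KO clones 1 to 3) or of both (the FAM3C/LIFR double KO, 1 line). Knockout candidates were picked from separate colonies after serial dilution. Each line gave 1 RNA sample, so that the spread within a group is a spread between lines. The second dataset, normalized separately, held 2 shPCBP1 samples and 2 NMuMG control samples, which the labels list as untreated and the methods describe as carrying a scrambled shRNA. Nothing in the labels says that these replicates were separate cultures, so its p-values measure only the spread between samples that may be technical.

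Genes that are neighbours on a chromosome need not share a regulator or a function. The distal part of mouse chromosome 19 holds, side by side, motors and chromatin factors of dividing cells (Kif11, Hells, Smc5), the kinase Jak2 that acts below cytokine receptors such as LIFR, the cluster of stearoyl-CoA desaturases that make monounsaturated fatty acids (Scd1 to Scd4), and mitochondrial enzymes. LIFR is the receptor of leukaemia inhibitory factor and signals through STAT3, and FAM3C, also called ILEI, is a secreted protein that the study examined together with it.

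Pcbp1 stood at 32.9 to 37.1 CPM in the shPCBP1 lines, and in the second dataset at 287 and 312 CPM in the controls against 14.1 and 14.2 CPM in the shPCBP1 samples. Values of a group of clones are given in the order of clones 1 to 3, and those of the shPCBP1 lines start with the unaltered line. Fam3c was at 26.4, 33.9 and 42.9 CPM in FAM3C KO clones 1 to 3 against 47.0 to 59.4 CPM in the shPCBP1 lines. Lifr itself measured 34.9, 29.3 and 14.6 CPM across the LIFR KO clones, 4.36 CPM in the double KO, and 25.8 to 40.2 CPM in the shPCBP1 lines. Lifr was therefore within the shPCBP1 range in LIFR KO clones 1 and 2, but a gene total mostly counts reads outside the piece cut out, and does not check the edit. The methods of the study state that candidate knockout lines were screened by PCR at the excision and then by immunoblot. The lowest values of the libraries implied 16031859 to 46901675 reads in the first dataset, and the depth of the second is unknown. LIFR KO clones 2 and 3 and the double KO stood apart from the other libraries, with a Spearman correlation across 12581 genes between difference and GC content of -0.758, -0.745 and -0.704 (-0.288 to 0.241 elsewhere) and a mitochondrial share of 7.16% to 8.58% of all CPM (3.14% to 4.06% elsewhere). Differences in these libraries are therefore also given with that GC trend removed ("GC-corrected"). Of 8 epithelial markers, 5 were measured in the first dataset. Cdh1, Krt8, Krt18 and Krt19 were above 200 CPM in each of its libraries and Cldn7 was below 1 CPM. All 8 mesenchymal or fibroblast markers were measured. Vim was at 844 to 1443 CPM, Fn1 at 148 to 444 CPM and Cdh2 at 109 to 345.5 CPM. Zeb1 (55.8 to 81.65 CPM) and Zeb2 (36.7 to 67.7 CPM) were lower, and Pdgfra, Pdgfrb and Col1a1 did not exceed 5.23 CPM. Only Cd68 of 4 immune markers was measured, at 4.29 to 10.8 CPM. The endothelial markers Pecam1 and Cdh5 (2 of 3 measured) did not exceed 1.76 CPM.

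The members were higher in LIFR KO clones 1 and 2 and in no other knockout line. The difference of each gene from the mean of the 4 shPCBP1 lines was taken on the log2(CPM + 0.1) scale, and each shPCBP1 line was set against the other 3. The median difference over the 185 members was 0.47 and 0.39 for LIFR KO clones 1 and 2, whereas clone 3 stood at -0.14 and the double KO at -0.15. In FAM3C KO clones 1 to 3 it was -0.05, -0.07 and -0.05, and in the shPCBP1 lines it was -0.07 (unaltered), -0.06 and -0.10 (CT clones 1 and 2) and 0.22 (CT clone 3). The median of all 12599 genes was -0.01 in LIFR KO clone 1, -0.25 in clone 2, -0.20 in clone 3 and -0.24 in the double KO, so that the members of clone 2 stood farther above the other genes of that library than the value of 0.39 shows. With the GC trend removed, the member medians were 0.52 and 0.49 in clones 1 and 2, -0.06 in clone 3 and -0.07 in the double KO, and the all-gene medians lay between 0.00 and 0.01 in these 4 libraries. In bulk RNA, a change in the number of cells that express a gene and a change in the RNA per cell cannot be told apart. The members made up 3.17% and 3.43% of all CPM in LIFR KO clones 1 and 2 and 2.06% to 2.31% in the other 9 libraries of the dataset.

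**Figure D1:**
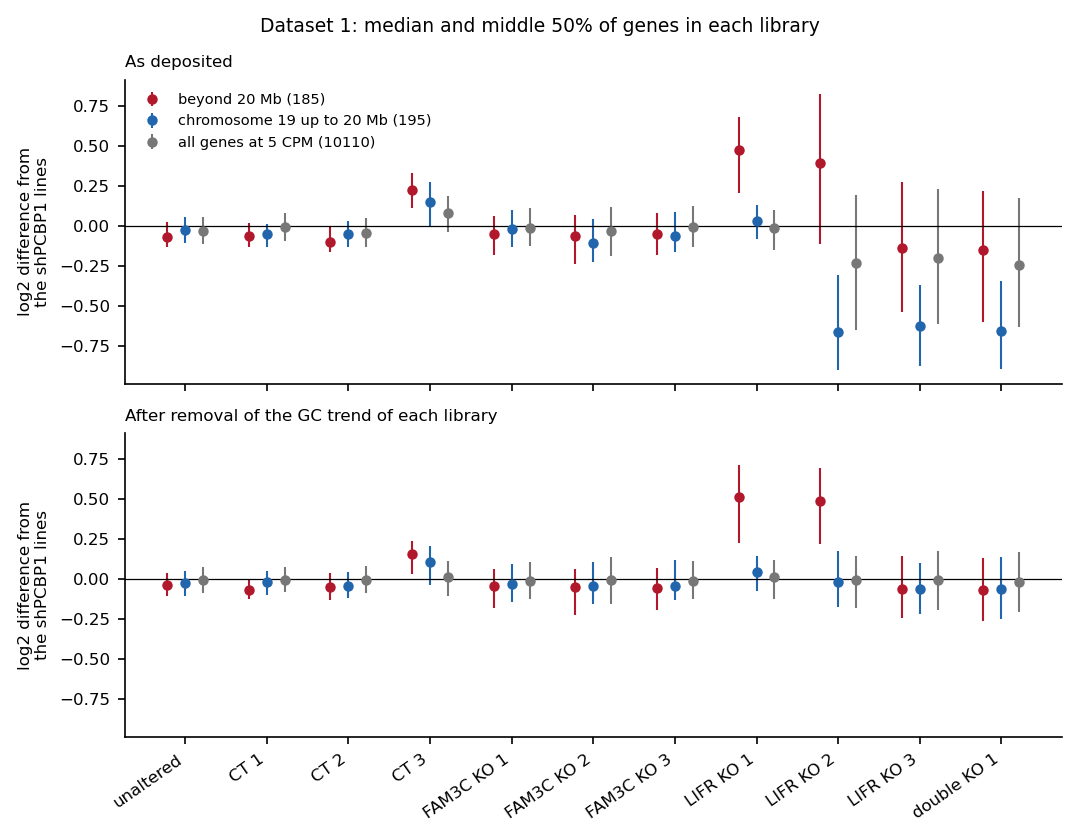
Median log2 difference from the shPCBP1 lines (points) with the middle 50% of genes (bars) for the 185 members (red), the 195 genes of chromosome 19 up to 20 Mb (blue) and 10110 genes at 5 CPM (grey), in each of the 11 libraries. As deposited (top), the members stand at 0.47 and 0.39 in LIFR KO clones 1 and 2, and with the GC trend removed (bottom) the other 2 gene groups lie near 0 in the knockout libraries while the members of these clones stay at 0.52 and 0.49.

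Of the 185 members, 84 were at least 25% higher than the shPCBP1 mean in both LIFR KO clone 1 and clone 2, against 3.32% of all 12599 genes, and 5 were at least 20% lower in both, against 10.9%. With the GC trend removed, 111 were higher in both (5.3% of all genes) and 2 were lower in both (8.35%). In 107 members both clones lay above all 4 shPCBP1 lines (6.73% of all genes). These counts come from the contrast that chose the region, and nothing is read from them. The summed CPM of the epithelial markers was 2092 in LIFR KO clone 1 and 1212 in clone 2, against 2466 to 3166 in the shPCBP1 lines, and that of the mesenchymal markers was 1598 and 1276 against 1770 to 2020. The epithelial sum was also below the shPCBP1 range in LIFR KO clone 3 (1951), the double KO (1817) and FAM3C KO clone 2 (2001), and within it in FAM3C KO clones 1 and 3. The mesenchymal sum was within its range in LIFR KO clone 3 and the double KO, and above it in the FAM3C KO clones. The part of these shifts in the members' values was not tested.

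The higher level was not even along the chromosome. Placed in gene order, the members formed 4 stretches, which were delimited after the values were seen and are described without a test. The first ran from Anxa1 (GRCm38 chr19:20373428-20390944), which encodes annexin A1, to Hps1 (chr19:42755105-42779978), a subunit of a complex that builds lysosome-related organelles, and held 91 members. Their median difference was 0.62 in LIFR KO clone 1, with the middle 50% of genes between 0.43 and 0.71, and 0.67 in clone 2. The next 13 members, from Cnnm1 (chr19:43440436-43497210) to Scd1 (chr19:44394455-44407879), stood at 1.08 in clone 1, with the middle 50% between 1.05 and 1.11, and at 0.96 in clone 2, which is 2.11-fold and 1.95-fold. This was the highest step of the profile in both clones, and 12 of its 13 genes were at least 25% higher in both.

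The profile then fell back within a single interval between genes. The 14 members from Ndufb8 (chr19:44548572-44555440) to Oga (chr19:45750259-45783837) stood at -0.03 in clone 1 and at -0.46 in clone 2, and 0 of the 14 were 25% higher in both. The value of clone 2 became 0.05 with the GC trend removed, and -0.24 when the libraries were rescaled by median ratios, so its sign depends on the scaling. These 14 genes have a median GC content of 52.3%, above the 45.7% of the first stretch. From Armh3 (chr19:45817364-45998488) to Zfp950 at the far end, 67 members stood at 0.30 in clone 1 and 0.15 in clone 2, or 0.34 and 0.33 with the GC trend removed. In LIFR KO clone 3 the GC-corrected medians of the 4 stretches were -0.10, -0.13, -0.04 and -0.02, with no such steps. In the double KO they were -0.07, -0.36, -0.09 and -0.01, so that the stretch from Cnnm1 to Scd1 stood lower there. In that stretch 7 of 13 genes were at least 20% lower, against 16.5% of all genes. The same stretch was also lower in FAM3C KO clones 1 to 3, with GC-corrected medians of -0.19, -0.26 and -0.18.

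**Figure D2:**
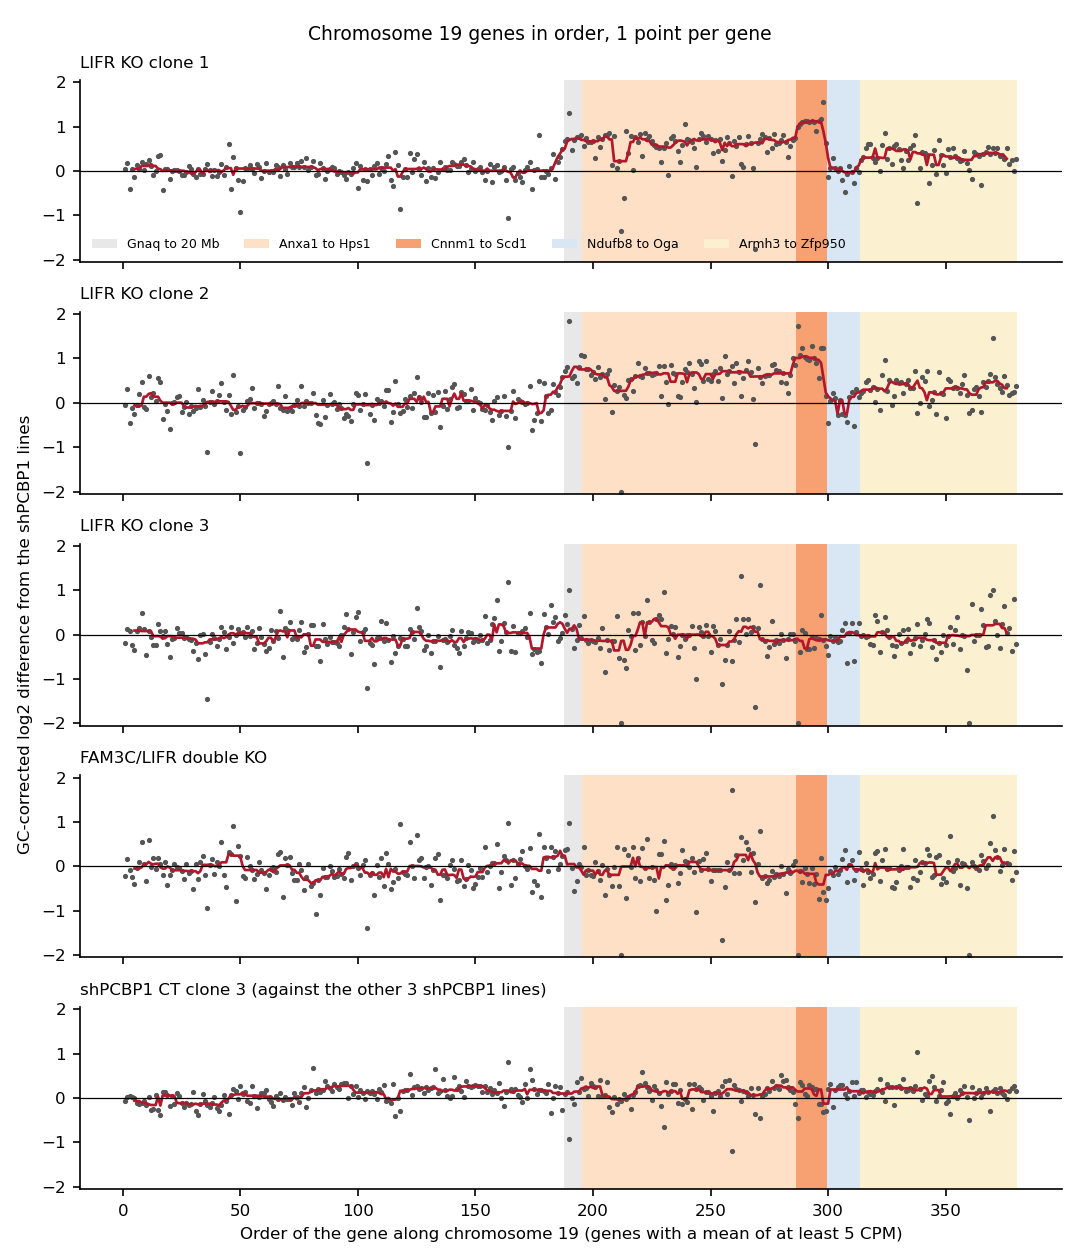
GC-corrected log2 difference from the shPCBP1 lines of each chromosome 19 gene at 5 CPM (points, drawn at the limits of the axis where beyond 2 in either direction) in order along the chromosome, with a running median of 9 genes (red line) and the stretches shaded. LIFR KO clones 1 and 2 show the same sequence of steps, with medians of 0.65 and 0.64, then 1.11 and 1.04, then -0.01 and 0.05, then 0.34 and 0.33, while LIFR KO clone 3 and shPCBP1 CT clone 3 show none of these steps and the double KO is lower, at -0.36, in the stretch where these clones are highest.

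The higher level also did not begin at 20 Mb. Of the 195 genes of chromosome 19 that lie up to 20 Mb and reach 5 CPM, the last 8, from Gnaq on, stood at 0.69 in LIFR KO clone 1 and 0.80 in clone 2. The 187 genes before them stood at 0.02 and -0.67, and at 0.04 and -0.03 with the GC trend removed. The border at Gnaq was set after the values were seen and is not sharp. Before it, Psat1 stood at 0.30 and 0.22 in clones 1 and 2, or 0.32 and 0.35 with the GC trend removed. Cep78, also before it, stood at 0.49 and 0.29, or 0.50 and 0.59 with the GC trend removed. Just outside the limit, Nmrk1 was at 7.72 and 7.65 CPM and Carnmt1 at 61.6 and 95.8 CPM in LIFR KO clones 1 and 2, against 3.74 to 5.87 CPM and 33.1 to 43.2 CPM in the shPCBP1 lines. Just inside it, Anxa1 was at 224 and 386 CPM against 145 to 184 CPM. Around the limit of 5 CPM, Cfap43, Dmrt2 and Pdlim1 fell short with means of 4.17, 4.60 and 4.88 CPM, and Plce1, Cpeb3 and Calhm2 were included with 6.2, 7.04 and 7.28 CPM. Over all of chromosome 19 the GC-corrected median was 0.17 in LIFR KO clone 1 and 0.19 in clone 2, where the other 19 chromosomes ranged from -0.38 to 0.05 and the lowest value in both belonged to chromosome 15. As deposited, the chromosome 19 median was 0.15 in clone 1, above every other chromosome. In clone 2 it was -0.19 as deposited, where chromosome X was highest at 0.18, so its rank in clone 2 depended on the GC correction.

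**Figure D3:**
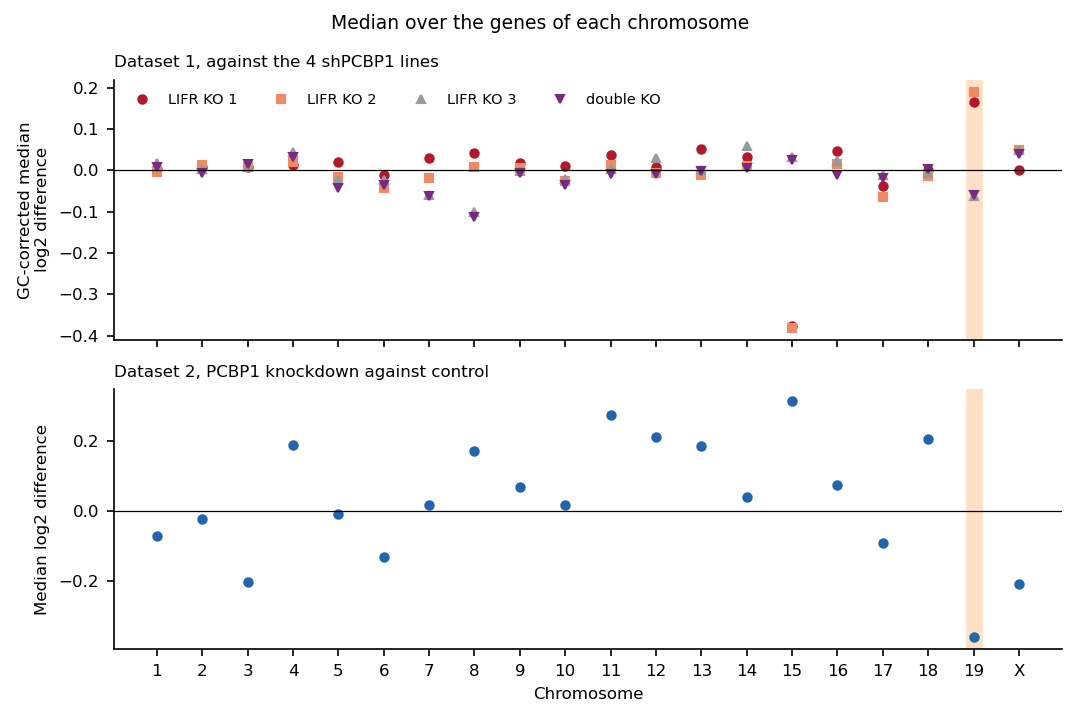
Median log2 difference over the genes of each chromosome, GC-corrected in the first dataset (top, 3 LIFR KO clones and the double KO against the shPCBP1 lines) and as deposited in the second (bottom, PCBP1 knockdown against control). With the GC trend removed, chromosome 19 (shaded) is the highest in LIFR KO clones 1 and 2, at 0.17 and 0.19. It is the lowest, at -0.36, in the second dataset, and chromosome 15 is the lowest in these clones and the highest in the second dataset. As deposited (not drawn), chromosome 19 is at -0.19 in LIFR KO clone 2 and is not the highest there.

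The sequences around the start sites of 4 genes beside the steps are shown so that the borders can be placed in the genome. They were taken from RefSeq (GRCm38.p6), which held a window of 300 bases around the start for 160 of the 185 members, and run 5′ to 3′ on the strand of the gene, with CCAAT and GGGCGG on either strand in capitals. The windows are chr19:42779929-42780228 for Hps1 and chr19:43524556-43524855 for Got1 (minus strand), chr19:43440163-43440462 for Cnnm1 (plus strand), and chr19:44555393-44555692 for Ndufb8 (minus strand).
Hps1: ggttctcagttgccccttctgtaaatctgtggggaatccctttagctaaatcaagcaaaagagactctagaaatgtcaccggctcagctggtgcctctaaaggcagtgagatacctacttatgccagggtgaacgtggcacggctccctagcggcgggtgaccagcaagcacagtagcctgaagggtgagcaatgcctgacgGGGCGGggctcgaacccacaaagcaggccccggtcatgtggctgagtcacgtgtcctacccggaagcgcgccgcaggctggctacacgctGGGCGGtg
Cnnm1: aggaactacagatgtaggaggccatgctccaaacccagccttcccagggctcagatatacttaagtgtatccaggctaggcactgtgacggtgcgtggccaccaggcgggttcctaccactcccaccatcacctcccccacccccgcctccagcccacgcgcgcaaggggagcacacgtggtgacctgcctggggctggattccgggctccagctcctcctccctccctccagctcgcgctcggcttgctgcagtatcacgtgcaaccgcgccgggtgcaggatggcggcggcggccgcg
Got1: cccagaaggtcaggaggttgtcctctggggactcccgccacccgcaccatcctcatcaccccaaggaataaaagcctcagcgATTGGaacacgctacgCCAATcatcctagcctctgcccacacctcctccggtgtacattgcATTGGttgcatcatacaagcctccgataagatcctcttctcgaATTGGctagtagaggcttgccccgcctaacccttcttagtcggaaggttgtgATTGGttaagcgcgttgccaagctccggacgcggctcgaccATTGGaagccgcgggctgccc
Ndufb8: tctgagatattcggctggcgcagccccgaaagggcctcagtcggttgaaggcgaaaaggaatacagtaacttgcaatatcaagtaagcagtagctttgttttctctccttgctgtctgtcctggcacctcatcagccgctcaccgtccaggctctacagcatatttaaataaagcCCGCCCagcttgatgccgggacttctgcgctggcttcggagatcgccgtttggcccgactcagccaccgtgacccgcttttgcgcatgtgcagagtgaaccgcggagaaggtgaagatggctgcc

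Hps1 closes the first stretch, Cnnm1 and Got1 open the second, and Ndufb8 opens the third. CCAAT stood 6 times in the window of Got1 and not in the others, and GGGCGG 2 times in that of Hps1 and 1 time in that of Ndufb8. Over the members, 38.8% of windows held CCAAT and 67.5% held GGGCGG, close to the 39.9% and 67.9% of the 8131 windows of genes at 5 CPM. TTCNNNGAA, the core that STAT proteins recognise, was in 15 of the 160 windows (9.38%), in 6.6% of the windows of genes at 5 CPM and in 8.47% of all 27025 windows. In the stretch from Cnnm1 to Scd1 it was in 2 of 11 windows. Members were given the window nearest their annotated start and other genes the first one listed, so the shares come from windows chosen differently. A match in such a window is a description of its letters only.

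The stretch with the highest step holds neighbouring genes of different function, and it was delimited on these values. Most genes named from it were picked as the highest in LIFR KO clones 1 and 2, so their shared rise follows from the choice. The differences of its genes lay close together in clone 1, with quartiles of 1.05 and 1.11 on the log2 scale. In clone 2 they were wider apart, with quartiles of 0.64 and 1.02, or 0.96 and 1.24 with the GC trend removed. Scd2, the most abundant of the 185 members, encodes a stearoyl-CoA desaturase. It was at 1388, 1204, 1203 and 1202 CPM in the shPCBP1 lines, at 2772, 2514 and 1470 CPM across the LIFR KO clones, and at 1187 CPM in the double KO. Clones 1 and 2 lay 1.15 and 1.01 above the shPCBP1 mean on the log2 scale and above every other library, and clone 3 lay just above the shPCBP1 lines. Its neighbour Scd4 was at 9.98, 9.77, 9.54 and 8.28 CPM in the shPCBP1 lines and at 27.5, 19.6 and 7.59 CPM across the LIFR KO clones, a difference of 1.54 and 1.06 in clones 1 and 2. The 4 Scd genes are close relatives, and reads shared between them may have been divided by the authors' counting, so the values of the less abundant members of the family are uncertain.

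Chuk, the IKK-alpha kinase of the NF-kappaB pathway, was at 63.1, 67.0, 58.5 and 79.9 CPM in the shPCBP1 lines and at 140, 218 and 86.3 CPM across the LIFR KO clones. Its difference was 1.07 in clone 1 and 1.71 in clone 2, of which 1.28 remained with the GC trend removed. Erlin1, a protein of the endoplasmic reticulum that restrains cholesterol synthesis, was at 40.2, 48.1, 44.2 and 57.2 CPM in the shPCBP1 lines and at 99.7, 95.2 and 39.7 CPM across the LIFR KO clones. In both genes clones 1 and 2 lay above every other library of the dataset. Entpd7, a nucleotide phosphohydrolase, was at 52.2, 51.2, 55.4 and 69.0 CPM in the shPCBP1 lines and at 119, 125 and 57.6 CPM across the LIFR KO clones, and only clones 1 and 2 lay outside the shPCBP1 range.

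Got1, the cytosolic aspartate aminotransferase, was at 38.9, 36.1, 38.6 and 50.7 CPM in the shPCBP1 lines and at 84.3, 63.4 and 23.1 CPM across the LIFR KO clones. Clones 1 and 2 were above the shPCBP1 range and clone 3 was below it. Cnnm1, a member of the cyclin M family of metal transport mediators, was at 38.4, 36.0, 39.9 and 28.7 CPM in the shPCBP1 lines, at 70.4, 68.3 and 4.31 CPM across the LIFR KO clones, and at 2.44 CPM in the double KO. It was the gene of this stretch in which clone 3 and the double KO lay farthest below the other lines, at -3.01 and -3.81.

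In the first stretch, Smc5, a subunit of the SMC5/6 complex that acts in DNA repair, was at 99.9, 105, 95.4 and 110 CPM in the shPCBP1 lines and at 167, 277 and 149 CPM across the LIFR KO clones. Kif11, the motor that separates the poles of the mitotic spindle, was at 138, 147, 146 and 160 CPM in the shPCBP1 lines and at 235, 269 and 144 CPM across the LIFR KO clones. As deposited, Kif11 in clone 3 was within the shPCBP1 range, whereas Smc5 was above it in all 3 clones. Smc5 has a GC content of 38.7%, against a median of 47.6% over the members. The part of the GC trend of clones 2 and 3 in its values was not tested. Tm9sf3, Ankrd1 and Myof, which with Scd2 and Eif3a are the 5 most abundant members, showed differences of 0.56, 0.64 and 0.44 in clone 1 and of 1.32, 0.55 and 0.31 in clone 2. These differences are as deposited, and Tm9sf3 has a GC content of 40.0%. Jak2, the receptor-associated kinase, was at 48.0, 48.5, 39.7 and 71.9 CPM in the shPCBP1 lines and at 62.9, 87.1 and 71.6 CPM across the LIFR KO clones, so that clone 1 lay below CT clone 3.

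The members with the lowest values in clones 1 and 2 were Smarca2, Blnk, Neurl1a, Fbxw4, Lzts2 and Fbxl15. Smarca2, an ATPase of the SWI/SNF chromatin remodellers, was at 12, 42.5, 29.0 and 24.6 CPM in the shPCBP1 lines and at 9.44, 1.41 and 0.343 CPM across the LIFR KO clones. Blnk, an adaptor of lymphocyte receptor signalling, was at 7.42, 10.9, 18 and 9.31 CPM in the shPCBP1 lines and at 3.06, 5.95 and 3.65 CPM across the LIFR KO clones. Both genes lie in the first stretch and were below every shPCBP1 line in all 3 clones, against the direction of their neighbours in clones 1 and 2. Neurl1a was at 14.1, 12.9, 13.0 and 28.1 CPM in the shPCBP1 lines and at 9.71, 5.93 and 7.95 CPM across the LIFR KO clones, below each line, and the difference of clone 2 went from -1.42 to -0.23 with the GC trend removed. For Fbxw4, Lzts2 and Fbxl15, the differences of -1.49, -1.42 and -1.39 in clone 2 became -0.52, -0.25 and -0.16 with the GC trend removed, and those of clone 1 were -0.28, -0.19 and 0.00.

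**Figure D4:**
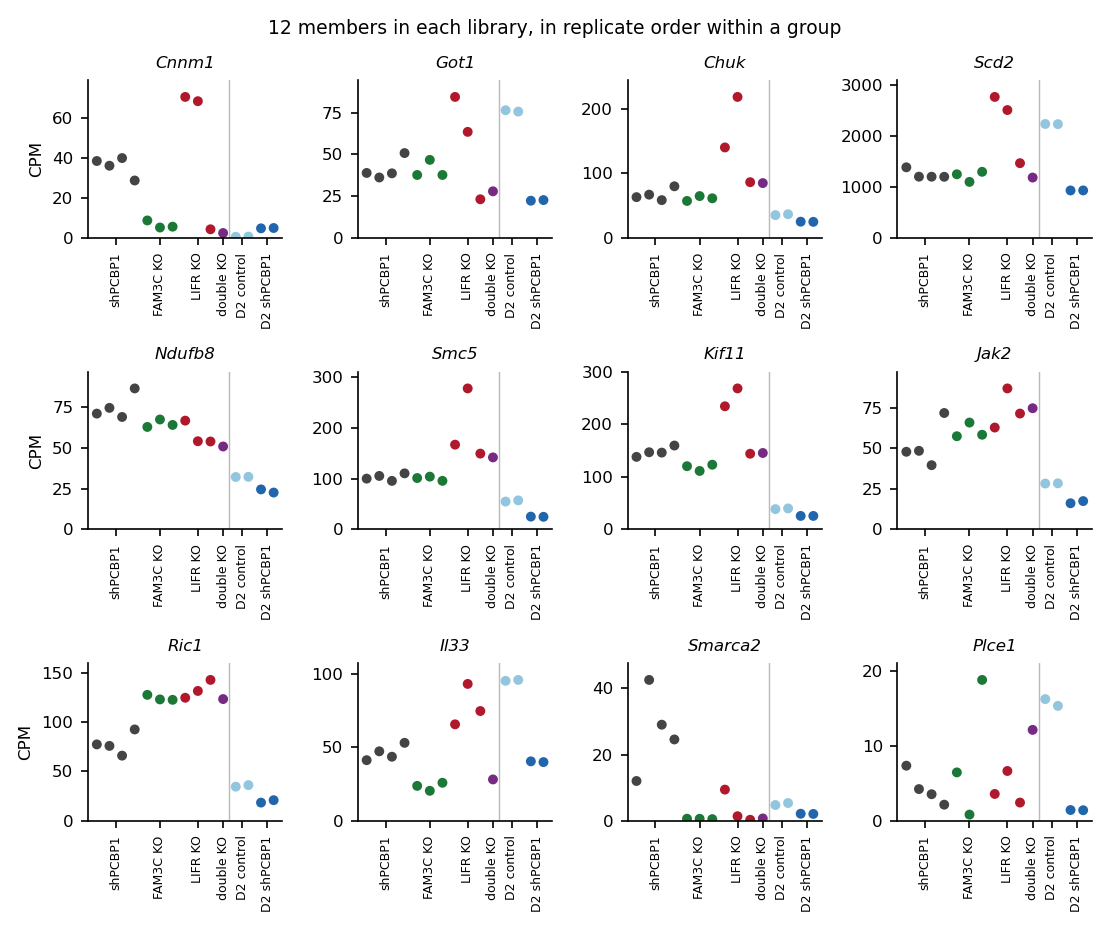
CPM of 12 members in each library, with the 4 shPCBP1 lines (grey, unaltered line first), FAM3C KO clones 1 to 3 (green), LIFR KO clones 1 to 3 (red) and the double KO (purple) of the first dataset left of the vertical line, and the control (light blue) and shPCBP1 (dark blue) samples of the second right of it. Each vertical axis starts at 0, the 2 datasets were normalized separately, and in Scd2 the 2 highest points of the first dataset are LIFR KO clones 1 and 2 at 2772 and 2514 CPM.

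CT clone 3 differed from the other shPCBP1 lines in the same region, and it is part of the reference. Its member median of 0.22 compared with an all-gene median of 0.07, and 0.16 remained with the GC trend removed. Genes of chromosome 19 up to 20 Mb stood at 0.15 in this clone, so its shift was not limited to the region. With CT clone 3 left out of the reference, the member medians of LIFR KO clones 1 and 2 became 0.53 and 0.45. With it left out, those of FAM3C KO clones 1 to 3 became 0.00, -0.01 and 0.00, and that of LIFR KO clone 3 became -0.04.

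Few members were called in FAM3C KO, in a fit that called few genes of any kind. This contrast was not used to choose the region, but it shares the 4 shPCBP1 lines with the LIFR KO contrast. In limma, fitted to the shPCBP1, FAM3C KO and LIFR KO lines together over 12621 genes, 3 of 185 members passed a Benjamini-Hochberg adjusted p of 0.07, against 0.309% of all genes, and 20 members had an unadjusted p under 0.05, against 10.2% of all genes. Smarca2 fell to 0.664, 0.640 and 0.538 CPM in FAM3C KO clones 1 to 3, and each clone lay below every shPCBP1 line. The limma difference was -5.12 ± 0.82 (SE) on the log2 scale, adjusted p = 0.0422. Il33, a cytokine of epithelial barriers, was at 23.8, 20.5 and 25.9 CPM in FAM3C KO clones 1 to 3 and at 41.3, 47.3, 43.6 and 53.1 CPM in the shPCBP1 lines. The difference was -0.98 ± 0.14 (SE), limma adjusted p = 0.0328, and Il33 was at 28.2 CPM in the double KO but at 65.7, 93.1 and 74.7 CPM across the LIFR KO clones.

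Ric1, part of the exchange factor that activates RAB6 at the Golgi, rose from 77.3, 75.8, 66.0 and 92.5 CPM in the shPCBP1 lines to 127, 123 and 122 CPM in FAM3C KO clones 1 to 3, with no overlap. The difference was 0.68 ± 0.11 (SE), limma adjusted p = 0.0493. Ric1 was also at 125, 131 and 143 CPM across the LIFR KO clones and at 123 CPM in the double KO. Cnnm1 was at 8.72, 5.20 and 5.61 CPM in FAM3C KO clones 1 to 3, below all 4 shPCBP1 lines, with a difference of -2.47 ± 0.79 (SE) that missed the threshold (limma adjusted p = 0.276). The spread of this gene in the fit includes the LIFR KO clones, which ranged from 4.31 to 70.4 CPM. In 34 members the 3 FAM3C KO clones lay below all 4 shPCBP1 lines, against 12.5% of all genes, and in 10 they lay above, against 10.2%. The same held for 34 and 14 of the 195 genes of chromosome 19 up to 20 Mb.

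The count of 3 depended on single libraries. It was 0 without CT clone 1 or 2 or any 1 FAM3C KO clone, 1 without CT clone 3, and 10 without LIFR KO clone 3. Fitted without the LIFR KO group it was 22, and with the GC trend removed it was 5. The share of all genes called in these fits is not given here, so the counts do not set the members against other genes.

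In the second dataset, most of the same genes were lower after knockdown of PCBP1. This comparison sets shPCBP1 cells against control cells before any knockout. The labels do not say that more than 1 line was made per group, so a difference between lines and an effect of PCBP1 loss cannot be told apart. None of its samples is shared with the first dataset, although a lower chromosome 19 was known from these data when the region was proposed. The limma fit over 11384 genes put 129 of the 180 members below the control at an adjusted p under 0.07, against 38.0% of all genes, and 27 above it, against 42.1%, and 24 did not pass. The median difference was -0.38 over the members, a 0.769-fold level, and 0.03 over the 11049 genes tested in both datasets. The members made up 2.85% and 2.86% of all CPM in the controls and 1.94% and 1.95% in the shPCBP1 samples. Replicates differed by a median of 0.04 in the members of either group, and with such a small spread most genes of the dataset passed the threshold, so the direction and size of a difference say more than its call. With a 1.5-fold change required as well, 71 members were lower (15.1% of all genes) and 12 higher (16.0%).

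The lower level was not limited to the region beyond 20 Mb, and it did not follow the steps of the LIFR KO clones. Of 174 genes of chromosome 19 up to 20 Mb, 124 were lower (71.3%) and 24 higher, with a median of -0.31, and chromosome 19 had the lowest median of 20 chromosomes (-0.36, followed by X at -0.21 and 3 at -0.20). The medians of the 4 stretches were -0.54, -0.52, -0.39 and -0.33 in order, and 65 of 88, 10 of 13, 12 of 14 and 42 of 65 genes were lower. Of the 14 genes from Ndufb8 to Oga, where the median of LIFR KO clone 1 was near 0, none passed the test above the control. Across the 180 members, the Spearman correlation of the second dataset's difference with that of LIFR KO clone 1 was -0.088, and with that of clone 2 it was -0.238. Genes are not independent replicates, and the GC trend of clone 2 enters its value. The mesenchymal markers summed to 536 and 557 CPM in the controls and to 1311 and 1345 CPM in the shPCBP1 samples of this dataset, and their part in the members' values was not tested.

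**Figure D5:**
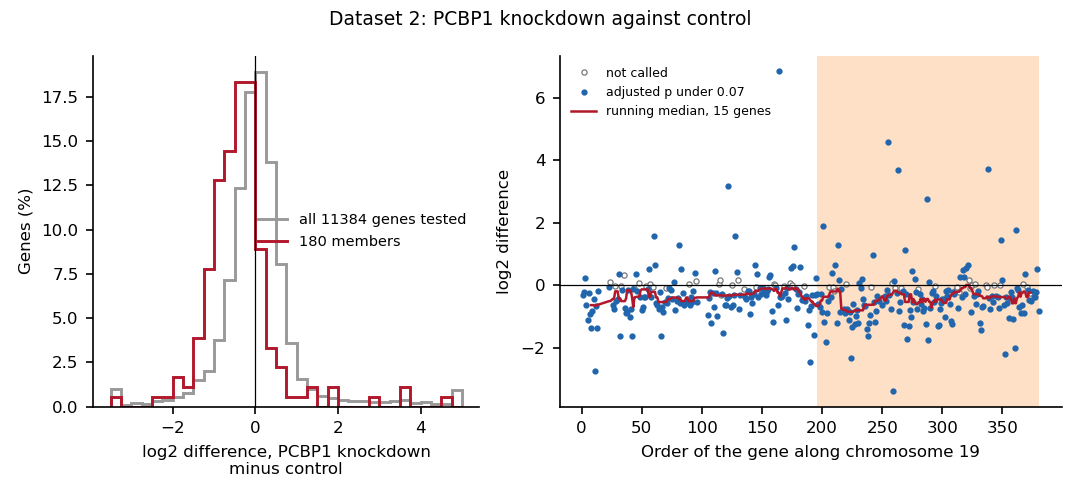
Left, share of genes by log2 difference between PCBP1 knockdown and control in the second dataset for the 180 members (red) and all 11384 genes tested (grey), with values beyond the axis counted in the end bins, and right, the difference of each chromosome 19 gene in order along the chromosome (filled, adjusted p under 0.07; open, not called), with a running median of 15 genes and the region beyond 20 Mb shaded. The members centre on -0.38, and the running median is below 0 on both sides of 20 Mb apart from a short run beyond it.

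The largest falls on PCBP1 knockdown reached about 10-fold. Plce1, a phospholipase C that acts downstream of RAS proteins, was at 16.2 and 15.3 CPM in the controls and at 1.45 and 1.42 CPM in the shPCBP1 samples. The difference was -3.37 ± 0.09 (SE), limma adjusted p = 7.35e-11. Ermp1, a peptidase of the endoplasmic reticulum, was at 258 and 267 CPM in the controls and at 53.0 and 52.1 CPM in the shPCBP1 samples (-2.32 ± 0.03, SE). The groups did not overlap in either gene, and the same was so for the other falls named here.

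Pdcd4, an inhibitor of translation initiation that acts as a tumor suppressor, fell from 6.83 and 6.83 CPM to 1.35 and 1.52 CPM. Habp2, a secreted serine protease, fell from 66.2 and 66.5 CPM to 17.4 and 15.7 CPM. Ptar1, a prenyltransferase subunit, fell from 31.6 and 29.1 CPM to 8.28 and 9.05 CPM. On the log2 scale the differences were -2.18 for Pdcd4 and -1.80 for Ptar1, with that of Habp2 between them. Got1 fell from 76.4 and 75.6 CPM to 22.3 and 22.6 CPM, whereas in LIFR KO clones 1 and 2 of the first dataset it was above the shPCBP1 lines. Pik3ap1, an adaptor that links receptors to PI3-kinase, fell from 7.61 and 7.54 CPM to 2.47 and 2.07 CPM, and the interferon-induced Ifit2 fell from 30.6 and 30.9 CPM to 9.69 and 10.1 CPM. All 8 kept their direction and their side of the threshold in each of the 12 settings tried for single genes.

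The rises were fewer, and several started from very low levels. Ffar4, a receptor for long-chain fatty acids, was at 0.213 and 0.189 CPM in the controls and at 7.02 and 7.17 CPM in the shPCBP1 samples, a difference of 4.58 ± 0.14 (SE), limma adjusted p = 1.75e-10. Neurl1a, an E3 ubiquitin ligase, rose from 0.443 and 0.340 CPM to 6.31 and 6.34 CPM, and Cyp2c55, a cytochrome P450, from 0.142 and 0.0944 CPM to 2.78 and 2.64 CPM. Cyp2c55 belongs to a large family of near-identical genes, and its reads may have been divided between relatives. Cnnm1 rose from 0.584 and 0.679 CPM to 4.78 and 4.95 CPM.

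Klf9, a Krüppel-like transcription factor, rose from 6.14 and 7.52 CPM to 26.2 and 24.8 CPM. Dusp5, a phosphatase of ERK, rose from 10.7 and 9.99 CPM to 27.2 and 29.8 CPM, and Vldlr, a receptor that takes up lipoproteins, from 7.75 and 7.84 CPM to 19.3 and 19.3 CPM. The 2 groups did not overlap in any of these 7 genes. In LIFR KO clones 1 and 2, Dusp5 stood at 0.12 and -0.57, and Vldlr at -0.63 and 0.41.

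Sorted by role, the members of 7 lists (drawn up with earlier results of these data known) are described by their counts, and no list was tested against the others. For comparison, 71.7% of all members and 38.0% of all genes were lower in the second dataset, and 45.4% of members and 3.32% of all genes were at least 25% higher in both LIFR KO clones 1 and 2. All 11 measured genes of cell division and DNA maintenance were lower on PCBP1 knockdown, with a median of -0.62 and the largest fall in Smc5 (-1.16 ± 0.04, SE), and 9 of the 11 were at least 25% higher in LIFR KO clones 1 and 2. Kif11 fell from 38.7 and 40.0 CPM to 25.7 and 25.7 CPM, Kif20b, a kinesin of cytokinesis, from 54.8 and 53.2 CPM to 28.1 and 28.4 CPM, and Uhrf2, a reader of modified DNA, from 73.1 and 74.7 CPM to 37.3 and 38.4 CPM. The pair of list members not 25% higher in both LIFR KO clones were Poll, a repair polymerase in the stretch from Ndufb8 to Oga (0.11 and -0.71), and Stn1, a telomere protein (0.41 and 0.11). These values are as deposited. The list had medians of 0.62 and 0.86 in clones 1 and 2, the latter becoming 0.68 with the GC trend removed. Most of the list lies in the stretch from Anxa1 to Hps1, where 60.4% of members were at least 25% higher in both clones.

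Of 15 signalling genes tested in the second dataset, 11 were lower and 3 higher, with a median of -0.52, a share of lower genes near that of all members. Jak2 fell from 28.3 and 28.5 CPM to 16.2 and 17.5 CPM. Btrc, the substrate receptor of the ligase that degrades beta-catenin, fell from 8.05 and 8.58 CPM to 3.48 and 3.44 CPM. Nfkb2, a subunit of NF-kappaB, rose from 8.64 and 8.86 CPM to 12.8 and 12.9 CPM, whereas Chuk, the kinase above it, fell from 35.3 and 36.7 CPM to 25.1 and 24.9 CPM. In the LIFR KO clones, 3 of the 16 members of this list were 25% higher in both clones 1 and 2 (Chuk and the cytoskeletal kinase Slk among them), and the medians of the list were 0.34 and 0.12, the latter becoming 0.48 with the GC trend removed, near the 0.49 of all members.

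Of the 11 lipid genes, 9 were lower and 2 higher on PCBP1 knockdown, with a median of -0.56. Scd2 fell from 2240 and 2237 CPM to 933 and 934 CPM, a 2.40-fold fall, and Scd1 from 25.4 and 25.6 CPM to 16.9 and 17.7 CPM. Gpam, which starts glycerolipid synthesis, fell from 28.4 and 28.7 CPM to 13.6 and 13.9 CPM. In LIFR KO clones 1 and 2 the list had medians of 0.61 and 0.41, the latter becoming 0.66 with the GC trend removed, and Gpam stood at 0.27 and 0.17. Of 12 genes tested from the list of mitochondrial and related enzymes, which holds the cytosolic Got1 and the overlapping genes Mrpl43 and Twnk, 11 were lower and 1, Pprc1, a coactivator of mitochondrial biogenesis, was higher (117 and 119 CPM to 165 and 167 CPM). Cox15, an assembly factor of cytochrome c oxidase, fell from 66.7 and 66.7 CPM to 40.8 and 40.3 CPM and was 2.15-fold and 1.95-fold higher in LIFR KO clones 1 and 2. Ndufb8, a subunit of complex I and the first gene beyond the step, fell from 32.2 and 32.3 CPM to 24.6 and 22.7 CPM in the second dataset and stood at -0.17 and -0.47 in LIFR KO clones 1 and 2.

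Of 14 genes of RNA processing and translation, 6 were lower, 4 were higher and 4 were not called, with a median of -0.02. Nolc1, a nucleolar chaperone, rose from 137 and 138 CPM to 166 and 169 CPM, and Eif3a, the largest subunit of a translation initiation factor, fell from 373 and 379 CPM to 294 and 288 CPM. Of 13 genes of the cytoskeleton and cell junctions, 9 were lower and 2 higher, with a median of -0.41. Ablim1, an actin-binding protein, fell from 72.5 and 71.6 CPM to 39.9 and 38.0 CPM, and Add3, an adducin of the membrane skeleton, from 23.0 and 23.6 CPM to 18.3 and 17.7 CPM. Of 5 genes of cell death and immunity, 3 were lower and 2 higher, and Il33 fell from 95.2 and 95.8 CPM to 40.5 and 40.0 CPM.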

How the data were processed

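RNA-Seq libraries were made by the authors with rRNA depletion and a directional kit, and reads were aligned with Bowtie2 to GRCm38 (mm10) in Partek Flow, as the methods and the submitters' processing notes state. The deposited values are CPM per gene, 1 column per library, in 2 tables normalized separately (11 and 4 libraries). How reads were counted per gene and the annotation release are not given in the sources used here. The second table also holds the authors' group means in CPM and a fold change (a ratio of the deposited means), which were not used. CPM values of the first table summed to 703925 to 786742 per library. Low values were whole multiples of the lowest value for 88.8% to 90.7% of those checked (tolerance 0.05 steps), too few for a count test, so depth was only implied from the lowest value. The CPM steps of the second table gave no depth.

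Differences were taken on log2(CPM + 0.1), which understates the change of low genes. Genes that averaged 0.5 CPM or more entered a limma fit (version 3.58.1, R 4.3.3, trended empirical Bayes, Benjamini-Hochberg adjusted p under 0.07 over all genes tested). The first table was fitted over the shPCBP1, FAM3C KO and LIFR KO lines without the double KO, and the second as 2 samples against 2. The fits were tested on simulated data. The GC trend of each library was removed with a loess curve (span 0.3) on the GC content of the longest GENCODE M21 transcript. The members were chosen by the start in the deposited first table, whose starts equal those of M21 for 302 of 13870 matched genes. Printed coordinates are those of M21 on GRCm38, where all 185 members also start beyond 20 Mb.

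The members, the role lists and the tests were chosen with earlier results of these data known. Genes were named by a rule: the 8 largest rises and 8 largest falls in the second dataset, members called in FAM3C KO, the 6 highest and 6 lowest over LIFR KO clones 1 and 2, the 5 most abundant, 3 on each side of the limits, and examples from the role lists. A few members that the rule or the lists would name are not reported here, but stayed in every fit and count. Cnnm1 and Habp2 in FAM3C KO and the genes at the borders of the stretches were named after their values were seen. Alternatives were another pseudocount, filters, median-ratio and quantile scaling, GC correction, a replicate block, other thresholds, other limits for the members and each replicate left out in turn. Python 3.11.15 with pandas 2.3.3, scipy 1.17.1 and matplotlib 3.10.9 was used for tables and figures.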

Additional observations from a re-analysis of the deposited data

Results flagged for a closer look

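Of 37 results examined over the 4 shPCBP1 lines, 4 had a line far from the other 3, judged by its gap to the nearest line as a share of the whole range against Dixon's critical value for 4 samples. Chance flags about 1 in 20 such groups. The members' median had a gap of 0.876 because CT clone 3 stood high, with deviations from the mean of -0.05 in the unaltered line, -0.05 and -0.08 in CT clones 1 and 2, and 0.17 in CT clone 3. The median of the stretch from Ndufb8 to Oga had a gap of 0.902, also with CT clone 3 high, at 0.28. Neurl1a had a gap of 0.883, with 28.1 CPM in CT clone 3. Scd2 had a gap of 0.986, with 1388 CPM in the unaltered line against 1202 to 1204 CPM in the CT clones.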

How the results depend on the processing

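In the second dataset, 126 to 133 members were lower in the settings that kept the 180 members and all 4 samples, with 129 in the main fit. Higher members numbered 24 to 27 in these settings, with 27 in the main fit. An exception was the added 1.5-fold change (71 and 12). Other limits for the members changed the total. At 20 CPM, 103 of 138 were lower and 20 higher, and at 1 CPM, 141 of 200 were lower and 33 higher. With the excluded families kept in, 130 of 184 were lower and 30 higher. Leaving out 1 sample gave 125 to 129 lower and 23 to 29 higher members, and a lone sample was then assumed to vary like the other group. The 15 genes named there kept their call in each of 180 settings. The counts for FAM3C KO lack the share of all genes called in the same fit, so nothing about the members is read from them. The count of 3 members in FAM3C KO was 5 with GC correction, 22 with the 2 groups fitted alone, and 0 to 10 with 1 clone left out. Its 3 named genes kept their direction in 57 settings and lost the call in 23, and the cause was not tested. The mean of LIFR KO clones 1 and 2, 0.43 over the members, was 0.56 after median-ratio rescaling, 0.41 to 0.46 with 1 shPCBP1 line left out, and 0.47 in clone 1 alone. The 84 members at least 25% higher in both clones were 44 at 1.5-fold and 82 to 111 in the remaining settings.

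Replicate numbers did not pair the samples: the deviations of libraries with the same number had correlations of -0.181 to 0.154 among the knockout and shPCBP1 lines, and 0.051 in the second dataset. With a replicate block, 132 members were lower and 27 higher in the second dataset, and 1 was called in FAM3C KO, or 0 with GC correction as well. The fits with GC correction and replicate block together, and the value of clone 1 alone, were added after the data were seen. With 1 RNA sample per clone, a difference between clones and one between preparations cannot be told apart.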

Other observations

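Cnnm1, Habp2 and Smarca2 shared a pattern that did not follow the steps along the chromosome. These genes were picked after their values were seen, and the pattern was not tested. Each was at least 2-fold below the shPCBP1 mean in all 3 FAM3C KO clones, in LIFR KO clone 3 and in the double KO, which was so for 3 of 185 members (1.62%) and for 23 of 10110 genes at 5 CPM (0.227%), and 0 members were at least 2-fold higher in all 5. Habp2, a secreted serine protease, was at 21, 15.9, 33.2 and 16.6 CPM in the shPCBP1 lines, at 4.16, 0.800 and 3.46 CPM in FAM3C KO clones 1 to 3, at 20.7, 12.6 and 3.43 CPM across the LIFR KO clones, and at 1.59 CPM in the double KO. LIFR KO clone 3 is 1 of the 5 lines that define the pattern, so its low values follow from the choice. LIFR KO clones 1 and 2 were not part of that choice. Both lay above every shPCBP1 line for Cnnm1 and below every shPCBP1 line for Smarca2. For Habp2, clone 1 was within the shPCBP1 range and clone 2 was below it. The 5 lines share the 4 shPCBP1 lines as their reference.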
